A study of Mus musculus with 2 samples.

Results

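Alveolar macrophages were taken from 2 single-cell RNA-sequencing libraries of mouse lung by the genes that they expressed. A cell was kept with 500 or more detected genes and no more than 20% of its UMIs from mitochondrial genes (UMIs are unique molecular identifiers, each of which stands for 1 captured RNA molecule). A kept cell was a member when it held at least 1 UMI of Tyrobp, a signalling adaptor of myeloid cells, and at least 4 UMIs summed over Plet1, Atp6v0d2, Marco and Ear2, with at least 2 of these 4 genes detected. Cells with a UMI of Cd3e, Cd79a, Cdh5 or Epcam, which mark T cells, B cells, endothelium and epithelium, were not counted. By this rule 405 of 15520 kept cells were alveolar macrophages, 133 of 3809 in the room air library and 272 of 11711 in the hyperoxia library. The levels of the 4 rule genes chose the members, so the values of these genes are given as a description.

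The study asked how a high oxygen level after birth affects the developing lung. C57BL/6 mice (C57BL/6J in the study's methods) were kept from P0 to P14 at the 21% oxygen of room air or, as a model of bronchopulmonary dysplasia, at 80% oxygen (hyperoxia), and whole lungs were dissociated at 2 weeks of age. Lungs of 8 mice were mixed into 1 library per group, so there was no replicate, and no test between the conditions was possible. Intervals are exact 95% intervals that cover counting error only and leave out the spread between mice.

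Alveolar macrophages live on the air side of the alveolus, where they take up and break down surfactant, inhaled particles and dying cells. They mature around birth, when GM-CSF from the epithelium induces the lipid-handling regulator PPAR-gamma, and they then persist largely by dividing in place. Their large lysosomal compartment, scavenger receptors such as Marco and lipid-handling genes set them apart from the interstitial macrophages of the lung tissue, many of which express the complement genes C1qa, C1qb and C1qc.

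The label was first held against the data. Of the members, 73 of 133 in room air and 186 of 272 in hyperoxia had all 4 rule genes detected, and 16 and 25 had only 2. The summed UMIs of the 4 genes had a median of 48 in room air (range 4 to 223) and of 82.5 in hyperoxia (range 4 to 352). Chil3, a chitinase-like protein that marks alveolar macrophages and was no part of the rule, was detected in 118 of 133 and in 201 of 272 members. It was also detected in 71 of 394 and 143 of 1089 Tyrobp-positive cells with a sum of 0, so its detection alone was not specific to members. At the edge of the rule, 5 members in room air and 15 in hyperoxia had a sum of 4 to 7, whereas 30 and 36 Tyrobp-positive cells had a sum of 3. A further 86 and 67 cells reached a sum of 4 or more from a single gene and were not counted, and that gene was Ear2 in 83 and 55 of them. Ear2 alone was thus also found in other myeloid cells, and the need for a second gene left them out.

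**Figure D1:**
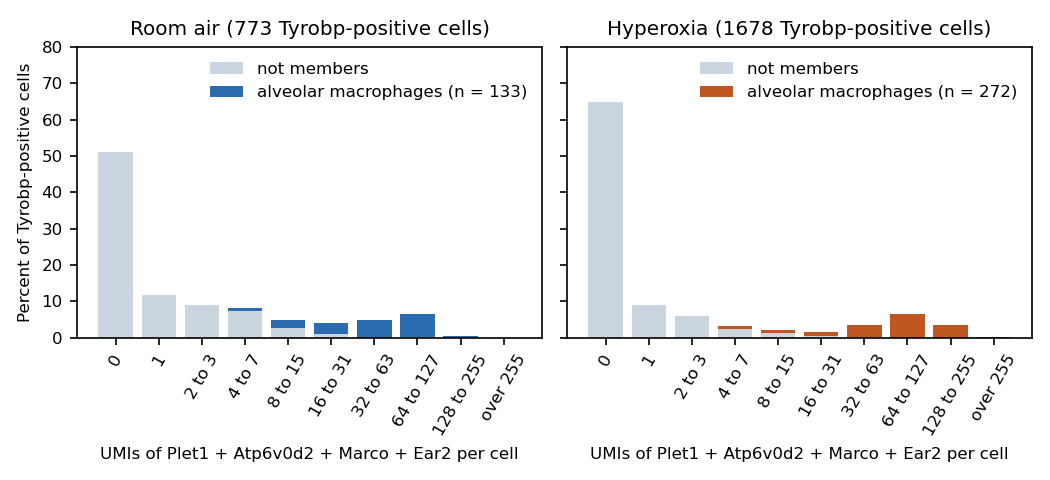
Percent of the Tyrobp-positive cells without genes of other lineages (y axis) by the UMIs of Plet1, Atp6v0d2, Marco and Ear2 summed per cell (x axis), in room air (left, 773 cells) and hyperoxia (right, 1678 cells), with members coloured and other cells in grey. Most cells lay at a sum of 0 (394 and 1089 cells), and the members spread around medians of 48 and 82.5 UMIs.

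Alveolar macrophages made up 3.49% of kept cells in room air (Clopper-Pearson interval 2.93 to 4.12) and 2.32% in hyperoxia (2.06 to 2.61), which is lower by 1.17 percentage points (difference -1.17, interval -1.86 to -0.54). Among the Tyrobp-positive cells without genes of other lineages the room air share was 17.2% (14.6 to 20.1) and the hyperoxia share 16.2% (14.5 to 18.1), and this difference of -0.996 points had an interval of -4.33 to 2.19 that includes 0. Within these cells a difference in share was not detectable at this depth. Shares also depend on how well each cell type survives dissociation, and this was not tested.

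The members were deeply covered, with a median of 13504 UMIs and 3472 genes per member in room air and 17676.5 UMIs and 3760.5 genes in hyperoxia, against 8123 and 7827 UMIs in all other kept cells. Their UMIs summed to 1857549 and 4869089, out of 39593888 and 111934936 in the whole libraries. The libraries shared 17 barcodes, none of which was a member. Free RNA of other cells was present. After each cell was thinned to 2000 UMIs, the surfactant gene Sftpc was found in 39.2% and 54.2% of members, but also in 54.7% and 77.4% of B cells, which do not express it. Markers of other cell types were summed in the members as CPM (UMIs per 1e+06 UMIs of the cells), room air first. The 9 stromal markers came to 578 and 826 CPM, the 9 of alveolar type 1 and airway epithelium to 540 and 407 CPM, the 8 of alveolar type 2 cells to 398 and 479 CPM, the 9 of neutrophils to 110.4 and 196 CPM and the 8 of endothelium to 78.1 and 82.8 CPM. The 6 measurable T and NK cell markers (15.6 and 8.83 CPM) and the 4 B cell markers (8.61 and 13.1 CPM) were lowest among these, but the rule itself had set Cd3e and Cd79a to 0. The 13 interstitial macrophage markers summed to 181 CPM in room air against 548 CPM under hyperoxia, the 10 monocyte markers to 332 and 175 CPM, and the 9 dendritic cell markers to 78.6 and 17.9 CPM. Of the C1qa UMIs of the members, 92.4% and 98.4% came from a small subset described further on, and the part of these other markers in the results was not tested. A search for doublets marked 0 of 133 and 22 of 272 members. The number of marks was fixed by the count of barcodes, at 3.39% of kept cells in room air and 10.6% in hyperoxia, so these counts do not compare the libraries.

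Several genes outside the rule were nearly restricted to the members among Tyrobp-positive cells. These comparisons describe cells that were chosen by their own expression and carry no test, and the CPM of members is taken over the UMIs of all members of a library. Ear1, an eosinophil-associated ribonuclease, stood at 696 CPM in room air members and 140.5 CPM in hyperoxia members, against 2.05 and 0.535 CPM in the other Tyrobp-positive cells. Krt79, a keratin, had 135 and 68.2 CPM against 0.372 and 0.321 CPM. Car4, a carbonic anhydrase of the cell surface, had 567 and 1462 CPM against 3.16 and 12.1 CPM. Olr1, a receptor for oxidised lipoprotein, had 284 and 399.9 CPM against 5.77 and 9.73 CPM. The transcriptional repressor Bhlhe41 (136 and 144 CPM) and the coagulation factor F7 (234 and 238 CPM) were at close levels in both libraries. The other genes among the 15 most restricted were Slc39a2, Fabp1, Kcnn3, Perp, Ear6 and Gmpr, and the rule genes Marco, Atp6v0d2 and Plet1. The restriction of these rule genes was set by the choice of members. The restricted set therefore held both genes that differed between the libraries and genes that were close in both.

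To compare the conditions, UMIs were summed over the members of each library and given as CPM. Of 2852 genes with a mean of at least 50 CPM, 50 were at least 2-fold higher in hyperoxia (1.75% of the genes measured) and 120 were at least 2-fold lower (4.21%). The median log2 ratio of hyperoxia over room air over these genes was -0.17, with quartiles of -0.42 and 0.10. The split depended on the scaling: median-of-ratios factors moved every log2 ratio by 0.23 and gave 90 higher and 68 lower genes, and TMM factors gave 89 and 68. Values below are on the CPM scale, so a log2 ratio between -0.23 and 0 turns positive under these factors, and lists are read against the median of -0.17. Counts in lists are read against the 1.75% higher and 4.21% lower of all genes, which were 3.16% and 2.39% under median-of-ratios factors. The medians of the lists for lipid handling, MHC class I and oxidative phosphorylation, which lay just below 0, change sign in this way. Fewer cells with a transcript and less of it in each cell cannot be told apart in a sum, so values per single cell are given for the genes that matter most.

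Among the rule genes, which are described only, Plet1, a surface glycoprotein, had 1069 CPM in room air against 1721 CPM under hyperoxia, and Atp6v0d2, a subunit of the proton pump that acidifies the lysosome, had 759.6 and 1257 CPM. Marco, a scavenger receptor for bacteria and particles, had 433 and 1186 CPM. Its median per cell was 1.23 UMIs per 10000 in room air and 6.82 in hyperoxia, with 54 of 133 and 58 of 272 members at 0. Ear2 ran the other way, with 1606 CPM in room air against 676 CPM under hyperoxia. The rule genes thus did not move together, and 3 were higher and 1 was lower in hyperoxia.

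**Figure D2:**
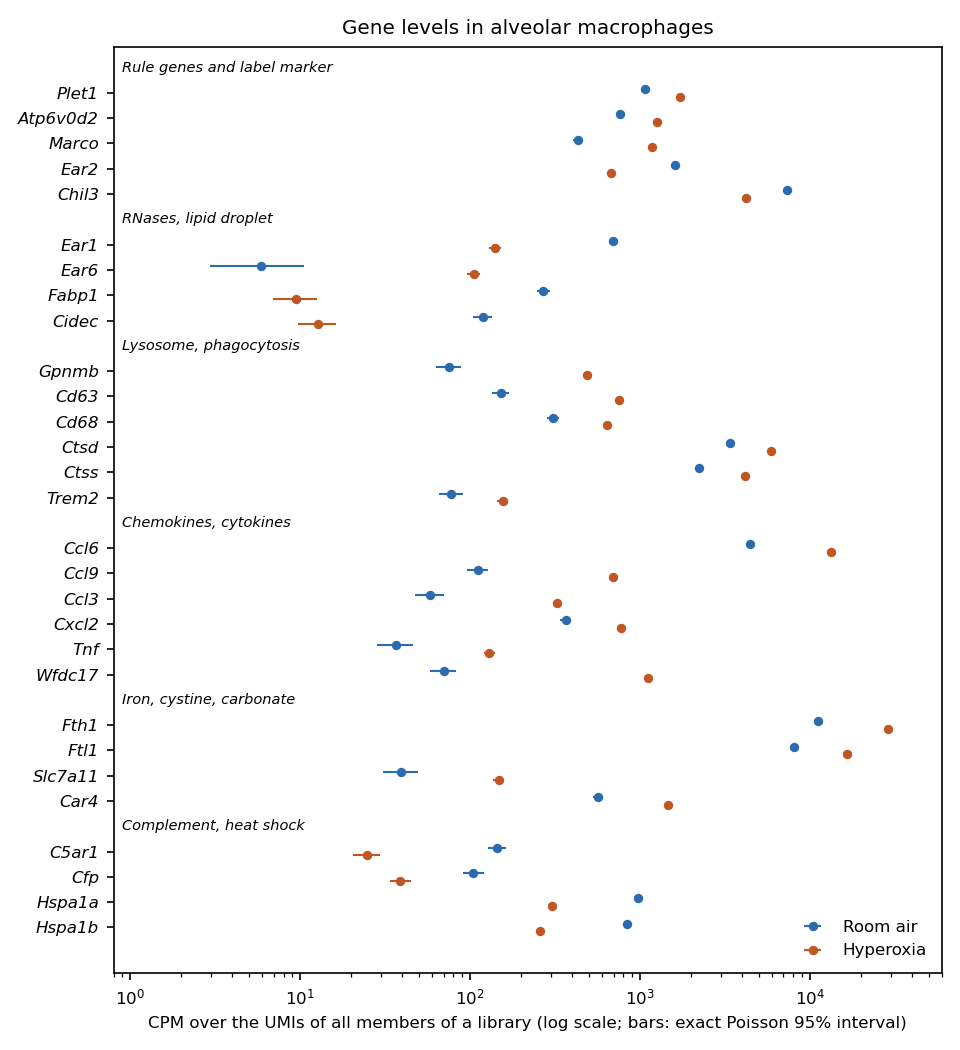
Level of 29 genes in the alveolar macrophages of each library, in CPM over the UMIs of all members (x axis, log scale), with exact Poisson 95% intervals as bars and genes grouped by role. Ear1, Fabp1, Cidec, C5ar1 and Hspa1b were lower in hyperoxia and Ear6, Wfdc17, Gpnmb, Ccl9 and Fth1 were higher, each by more than the counting error.

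The eosinophil-associated ribonucleases differed in opposite directions within 1 gene family. These secreted RNases lie on chromosome 14 in the mouse, and Ear1 and Ear2 are among the classical transcripts of alveolar macrophages. Ear1 was at 696 CPM in room air against 140.5 CPM under hyperoxia, a log2 ratio of -2.31 (-2.44 to -2.17). Per cell, its median was 5.78 UMIs per 10000 (quartiles 1.75 and 11.4) in room air and 0.281 (0 and 1.57) in hyperoxia, with 25 of 133 and 134 of 272 members at 0. Ear2 had a median of 15.5 UMIs per 10000 (8.16 and 24.8) in room air and 4.93 (1.92 and 9.35) in hyperoxia, and 11.03% of hyperoxia members lay above the room air median. The distributions of both genes were shifted down in hyperoxia, with overlap at low levels. Ear6 was the reverse, at 5.92 CPM in room air from 11 UMIs and 106 CPM in hyperoxia from 514 UMIs, a log2 ratio of 4.16 (3.30 to 5.17). It passed the filter of 50 CPM only through the hyperoxia library, so it had to differ, and Ear2 is a gene of the rule. With all members thinned to 2000 UMIs, Ear6 was found in 0.77% of room air and 17.4% of hyperoxia members.

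The regions just before the start of these 3 genes are shown because the transcripts moved in opposite directions although the sequences are close relatives. Each holds the 250 bases before the start in the RefSeq table (GRCm38.p6), read 5′ to 3′ on the strand of the gene, and capitals in Ear2 and Ear6 mark bases that differ from Ear1 or are inserted. The Ear1 sequence lies at chr14:43819640-43819889 on the minus strand, Ear2 at chr14:44102404-44102653 and Ear6 at chr14:51853518-51853767, both on the plus strand. In the GENCODE annotation Ear1 spans 43818765 to 43875517 and Ear6 begins at 51853699. By that annotation the whole Ear1 stretch and the end of the Ear6 stretch lie inside the genes.
Ear1: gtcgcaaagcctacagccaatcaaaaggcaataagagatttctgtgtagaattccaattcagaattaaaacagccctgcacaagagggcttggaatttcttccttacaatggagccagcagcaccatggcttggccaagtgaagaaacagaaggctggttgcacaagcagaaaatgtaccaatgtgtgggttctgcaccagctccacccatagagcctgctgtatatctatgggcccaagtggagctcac
Ear2: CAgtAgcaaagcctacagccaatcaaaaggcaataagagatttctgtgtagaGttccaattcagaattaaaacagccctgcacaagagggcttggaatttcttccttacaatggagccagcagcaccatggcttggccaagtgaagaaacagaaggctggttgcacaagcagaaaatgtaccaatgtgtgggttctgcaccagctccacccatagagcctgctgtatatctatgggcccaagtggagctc
Ear6: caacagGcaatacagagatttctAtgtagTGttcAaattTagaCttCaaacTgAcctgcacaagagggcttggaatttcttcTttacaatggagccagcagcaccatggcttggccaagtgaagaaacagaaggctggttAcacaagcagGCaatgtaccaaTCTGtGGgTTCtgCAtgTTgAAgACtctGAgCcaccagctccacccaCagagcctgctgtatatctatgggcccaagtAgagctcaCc
Ear1 and Ear2 were identical at 246 of 252 aligned positions (97.6%). Ear6 was identical to Ear1 at 213 of 270 positions (78.9%). Reads of close copies can be split between them by the counting: of the 50-base windows in the last 500 transcript bases of Ear1, 31.7% also occur in Ear2 and 2.00% in Ear6. The levels of Ear1 and Ear2 are thus less certain as separate genes than that of Ear6.

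Genes of alveolar macrophage identity held large differences in both directions. Of 25 genes measured out of 26 listed, 3 were at least 2-fold higher (1.75% of all genes) and 5 at least 2-fold lower (4.21%), with a median log2 ratio of 0.32. A ratio above 0 was found for 16 of the 25, against 33.2% of all 2852 genes. These counts hold the 4 rule genes. Without them 2 of 21 were higher and 4 lower, and 13 had a ratio above 0, with a median of 0.17. Chil3, the chitinase-like protein, was at 7345 CPM in room air against 4235 CPM under hyperoxia (log2 ratio -0.79, -0.83 to -0.76). Its median per cell was 38.5 UMIs per 10000 (4.53 and 72.1) against 15.3 (0 and 55.6), and 15 of 133 and 71 of 272 members had none. Siglecf, a sialic acid-binding receptor used to sort these cells, was at 71.1 and 30.2 CPM (log2 ratio -1.23), and passed the filter only through room air. On the other side, Car4 was at 567 and 1462 CPM (log2 ratio 1.37), with per-cell medians of 3.30 and 11.7 UMIs per 10000. Lyz2, the lysozyme of myeloid cells, had 7747 and 11422 CPM (log2 ratio 0.56), and Mrc1, the mannose receptor, 758 and 765 CPM (log2 ratio 0.01). Krt79 was just short of the fold, with a log2 ratio of -0.99.

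Among the receptors and regulators that direct this identity, no measured gene passed the fold. None of the 18 genes measured, of 27 listed for the GM-CSF, TGF-beta and PPAR-gamma axis, was 2-fold higher or lower, and their median log2 ratio was -0.33. Csf2ra and Csf2rb, the chains of the GM-CSF receptor, were at 176 and 239 CPM in room air and 176 and 263 CPM in hyperoxia. Pparg, which encodes PPAR-gamma, was at 160.4 and 154 CPM (log2 ratio -0.05, -0.25 to 0.14). Tgfbr2, a TGF-beta receptor, had a log2 ratio of 0.07, and Spi1, which encodes the macrophage factor PU.1, one of -0.10. The lowest ratios named here were those of the transcription factors Cebpa (-0.61) and Runx1 (-0.50). The ratios named here were smaller in size than those of the ribonucleases.

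Among 22 measured of 32 listed genes of lipid uptake, storage and export, 2 were at least 2-fold higher (1.75% of all genes) and 2 at least 2-fold lower (4.21%). Their median log2 ratio of -0.18 is close to that of all genes. Fabp1, a carrier of fatty acids, had 501 UMIs in room air and 46 in hyperoxia, or 269.7 and 9.45 CPM (log2 ratio -4.84, -5.30 to -4.40). It was at 0 in 58 of 133 and 245 of 272 members. Cidec, which helps lipid droplets to fuse, was at 119 and 12.7 CPM (log2 ratio -3.22, -3.65 to -2.81) and at 0 in 54 of 133 and 226 of 272 members. Both transcripts were thus not detected in most hyperoxia members. They were under 50 CPM in hyperoxia and passed the filter only through room air. Fabp5, another fatty acid carrier, was higher at 621 and 1282 CPM (log2 ratio 1.04, 0.84 when members with UMIs of other cell types were left out). The fatty acid and lipoprotein receptor Cd36 was at 392 and 668 CPM (log2 ratio 0.77), and Lipa, the acid lipase of the lysosome, at 419 and 659 CPM (log2 ratio 0.65). Abcg1, which exports cholesterol, was at 902 and 597 CPM (log2 ratio -0.60), and the lipoprotein lipase Lpl at 1709 and 2132 CPM (log2 ratio 0.32). Apoe passed the fold only through the subset of members that were rich in MHC class II, and its log2 ratio of 1.37 became -0.95 without them. Of 20 genes of cholesterol synthesis 6 were measured, and Insig1, which holds this pathway back, had 93.1 and 46.4 CPM. Its log2 ratio of -1.005 was at the limit and was not past it under most alternatives (up to -0.77). Insig1 also passed the filter only through room air.

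On the CPM scale few lysosomal genes passed the fold, but most had a ratio above 0. Of 31 genes measured out of 35 listed, 3 were at least 2-fold higher (1.75% of all genes) and 0 at least 2-fold lower (4.21%), and the median log2 ratio was 0.46. A log2 ratio above 0 was found for 27 of the 31, against 33.2% of all 2852 genes, and for 26 of 30 without the rule gene Atp6v0d2. Under median-of-ratios or TMM factors, 9 of the 31 were at least 2-fold higher (3.16% and 3.13% of all genes). All 31 then had a ratio above 0, beside a median over all genes of 0.07 and 0.06. Gpnmb, a membrane glycoprotein of lysosomes, was at 75.4 CPM in room air against 488 CPM under hyperoxia (log2 ratio 2.69, 2.45 to 2.95), and 75 of 133 against 44 of 272 members had none. Cd63, a tetraspanin of late endosomes, was at 152 and 753 CPM (log2 ratio 2.31, 2.14 to 2.49). Its median per cell was 0 in room air and 6.91 UMIs per 10000 in hyperoxia, and 91.5% of hyperoxia members lay above the room air median. Both genes were thus detected in a minority of room air members and in most hyperoxia members. Cd68, a lysosomal membrane protein of macrophages, had 309 and 644 CPM (log2 ratio 1.06, 0.65 with members thinned to 2000 UMIs). The cathepsins, which are lysosomal proteases, lay mostly below the fold on the CPM scale: Ctsd at 3411 and 5882 CPM (log2 ratio 0.79), Ctss at 2221 and 4166 CPM (0.91) and Ctsl at 238 and 444 CPM (0.90). Of the proton pump, Atp6v1a had a log2 ratio of 0.80 and Atp6v1c1 one of 0.80. Mitf, a transcription factor of lysosomal genes, was at 39.8 and 71.7 CPM (log2 ratio 0.85), and passed the filter only through hyperoxia. The listed factors Tfeb and Tfe3 were not higher. In members thinned to 2000 UMIs, Tfeb was found in 9.23% in room air and 4.55% in hyperoxia, and Tfe3 in 4.62% and 3.79%. With a mean of at least 10 CPM, 35 genes of the list were measured, 27 with a ratio above 0 and 8 below.

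Promoter sequence is shown for 2 of these lysosomal genes because it holds motifs that were searched in all promoters. The 250 bases before the start of Ctsd (chr7:142387828-142388077, minus strand) and of Cd68 (chr11:69666171-69666420, minus strand) are from RefSeq (GRCm38.p6), with the matched motif in capitals. The GENCODE annotation puts the start of Ctsd at 142388038, so by it most of the Ctsd stretch, with the motif, lies inside the gene.
Ctsd: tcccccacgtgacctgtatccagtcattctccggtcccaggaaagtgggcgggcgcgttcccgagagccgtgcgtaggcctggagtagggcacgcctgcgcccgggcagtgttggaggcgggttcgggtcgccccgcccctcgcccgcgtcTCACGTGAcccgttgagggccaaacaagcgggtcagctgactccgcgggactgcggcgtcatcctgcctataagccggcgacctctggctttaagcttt
Cd68: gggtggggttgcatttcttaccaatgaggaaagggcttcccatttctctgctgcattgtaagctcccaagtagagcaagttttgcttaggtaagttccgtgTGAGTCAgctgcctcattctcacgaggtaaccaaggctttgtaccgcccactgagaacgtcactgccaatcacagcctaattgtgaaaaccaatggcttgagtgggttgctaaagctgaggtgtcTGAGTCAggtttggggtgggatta
In Ctsd the capitals mark TCACGTGA, the core of the CLEAR motif to which TFEB, TFE3 and MITF bind, 99 bases before the start. In Cd68 they mark TGAGTCA, a form of the AP-1 motif TGANTCA, at 149 and 24 bases before the start. On both strands, TCACGTGA was in 0.785% of all 32851 promoters of the table, in 2.48% of the 2220 measured genes with a promoter, in 0 of 39 genes at least 2-fold higher and in 1 of 89 at least 2-fold lower. TGANTCA was in 6.75% of all promoters, 5.18% of those of measured genes, 4 of 39 higher genes (Ccl9, Cd68, Il1a and Trem2) and 6 of 89 lower genes. The PU.1-type motif GAGGAAGT was in 2.44% of all promoters, 3.74% of those of measured genes, 3 of 39 higher and 2 of 89 lower genes. None of these 3 motifs holds another. A match is a description of these letters and not a bound site.

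Of 22 scavenger and phagocytic receptors measured out of 31 listed, 3 were at least 2-fold higher (1.75% of all genes) and 1 at least 2-fold lower (4.21%). Their median log2 ratio was 0.51. Without the rule gene Marco, 2 of 21 were higher and 1 was lower. Besides Cd68, Trem2, a receptor for lipids and dying cells, was at 77.5 and 156 CPM (log2 ratio 1.01, 0.74 in thinned cells). Cd14, a co-receptor for bacterial lipopolysaccharide, had a log2 ratio of 0.70. The bacterial lipopeptide receptor Tlr2 (-0.83) and the receptors for dying cells Mertk (-0.56) and Axl (-0.37) had ratios below 0.

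Chemokines and cytokines were among the largest differences. Of 16 measured out of 35 listed, 7 were at least 2-fold higher (1.75% of all genes) and 0 at least 2-fold lower (4.21%), with a median log2 ratio of 0.53. Ccl6, the most abundant chemokine here, was at 4426 CPM in room air against 13367 CPM under hyperoxia (log2 ratio 1.59, 1.56 to 1.63). Its median per cell was 32.02 UMIs per 10000 (14.5 and 55.4) in room air and 132.8 (89.8 and 172) in hyperoxia, and these quartile ranges did not overlap. Ccl9, its close relative, was at 111 and 690.5 CPM (log2 ratio 2.64, 2.44 to 2.85), and 79 of 133 against 42 of 272 members had none. Ccl3, which attracts monocytes and neutrophils, was at 58.1 and 327 CPM (log2 ratio 2.49). The inflammatory cytokines Tnf (36.6 and 130.2 CPM, log2 ratio 1.83) and Il1a (45.8 and 114 CPM, 1.31) were higher at low levels, but both passed the filter only through hyperoxia. Cxcl2, which attracts neutrophils, was at 367 and 778 CPM, and its log2 ratio of 1.09 became 0.66 without the MHC class II-rich members. Il1b (0.37), Il18 (-0.66) and Osm (-0.77) stayed below the fold.

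Several of these genes are neighbours on chromosome 11. Ccl9 (83572919 to 83578636), Ccl6 (83587882 to 83593087), Ccl3 (83647844 to 83649355), Ccl4 (83662584 to 83664683) and Wfdc17 (83703991 to 83706268, all GRCm38) lie in 1 stretch of the chromosome. From 100 kb before Ccl9 to 100 kb after Wfdc17 the table held 12 genes, 7 of which were measured, and these 5 were all at least 2-fold higher. The other two measured genes, Taf15 and Wfdc21, had log2 ratios of -0.73 and 0.66. The window was chosen after these values were seen, so the count is a description. Wfdc17, a small secreted protein with a whey acidic protein domain, had 130 UMIs in room air and 5425 in hyperoxia, or 70.0 and 1114 CPM (log2 ratio 3.99, 3.74 to 4.26). It was found in 13.8% and 63.6% of members thinned to 2000 UMIs, against 1.61% and 1.51% of B cells. Ccl4 was near the limit of 50 CPM (31.8 and 72.3 CPM), and its log2 ratio of 1.19 was 0.67 as the mean over single cells. In room air 1 member held 39.0% of its UMIs.

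Iron storage genes were higher in most hyperoxia members. Fth1 and Ftl1 encode the heavy and light chains of ferritin, the cage that stores iron. Fth1 was at 11203 CPM in room air against 28878 CPM under hyperoxia (log2 ratio 1.37, 1.35 to 1.39). Its median per cell was 96.2 UMIs per 10000 (50.7 and 133) against 252 (169.8 and 355), and 93.01% of hyperoxia members lay above the room air median. Ftl1 was at 8098 and 16550.1 CPM (log2 ratio 1.03), and 69.8% of the 50-base windows at its transcript's end also occur in the copy Ftl1-ps1. Blvrb, which acts in the breakdown of haem, was at 88.3 and 219 CPM (log2 ratio 1.31). In all, 3 of 6 measured iron genes, of 18 listed, were at least 2-fold higher (1.75% of all genes) and 0 at least 2-fold lower (4.21%). Ratios below 0 were found for 2, Hmox1 and the transferrin gene Trf (437 and 254 CPM, log2 ratio -0.78). With dividing members left out 2 were higher and 1 was lower, as also after thinning to 2000 UMIs.

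Few genes of the antioxidant defence passed the fold. Of 25 measured of 34 listed, 1 was at least 2-fold higher (1.75% of all genes) and 1 at least 2-fold lower (4.21%), with a median log2 ratio of 0.05. A ratio above 0 was found for 15 of the 25, against 33.2% of all 2852 genes. Slc7a11, which imports cystine for glutathione, was at 39.3 and 147 CPM (log2 ratio 1.91, 1.56 to 2.28). This gene passed the filter of 50 CPM only through hyperoxia, where it is high. Prdx1, a peroxidase, was at 1101 and 1680.4 CPM (log2 ratio 0.61). Hmox1, haem oxygenase, had a log2 ratio of -0.42, and Nfe2l2, which encodes NRF2, one of -0.71. The metallothionein Mt2 was lower, at 369 and 170.5 CPM (log2 ratio -1.12), but not past the fold under median-of-ratios (-0.88) or TMM factors (-0.89), as the mean of single cells, after thinning (-0.91) or when members with UMIs of other cell types were left out (-0.79). Among 7 measured of 20 listed p53 targets, 6 had a ratio above 0 and 1 was past the fold. This was Phlda3, which dampens AKT signalling, at 26.4 and 100.4 CPM (log2 ratio 1.93). Phlda3 too passed the filter only through hyperoxia. Cdkn1a, the cell cycle inhibitor p21, was at 406 and 631 CPM (log2 ratio 0.64), and Ccng1 (0.77), Gdf15 (0.62), Bax (0.54) and Mdm2 (0.23) were below the fold.

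Other genes named by their ratio were S100a1, a calcium-binding protein, at 406 and 1478 CPM (log2 ratio 1.86), Slc39a2, a zinc importer, at 52.2 and 211 CPM (2.02), and Rgs1, which dampens signals of G protein-coupled receptors, at 91.0 and 360.4 CPM (1.99). S100a1 was above the room air median in 88.6% of hyperoxia members. C5ar1, the receptor for the complement fragment C5a, was lower, at 144 and 24.9 CPM (log2 ratio -2.54, -2.86 to -2.22), and 41 of 133 against 215 of 272 members had none. C5ar1 passed the filter of 50 CPM only through room air. Spp1, osteopontin, was at 293 and 609 CPM, but 1 hyperoxia member held 17.0% of its UMIs, and its log2 ratio of 1.06 was 0.11 when members with UMIs of other cell types were left out.

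**Figure D3:**
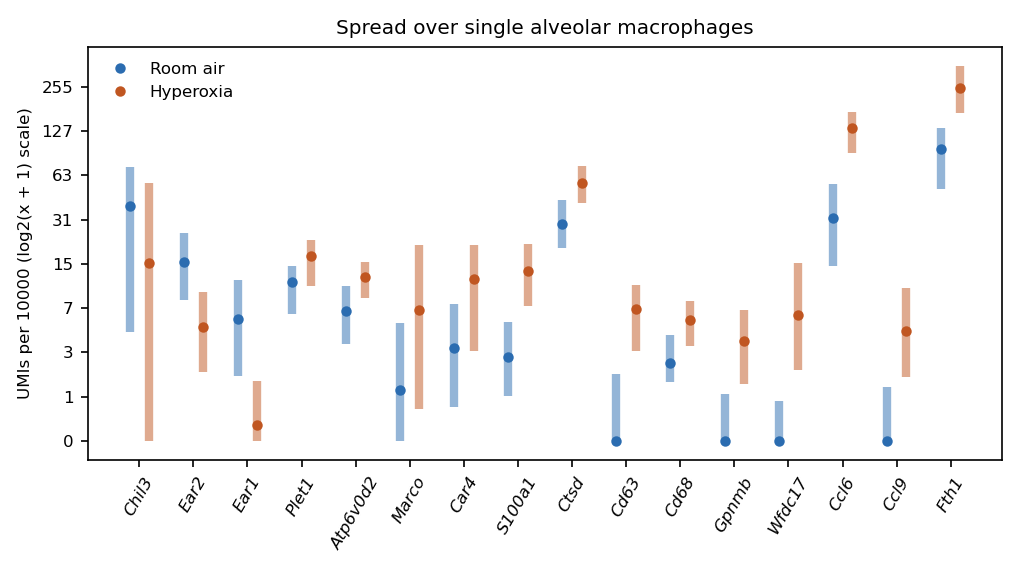
UMIs per 10000 in single alveolar macrophages for 16 genes (y axis on a log2(x + 1) scale), with the median as a point and the range from the lower to the upper quartile as a bar, for 133 room air and 272 hyperoxia members. The bars of Ccl6 (14.5 to 55.4 and 89.8 to 172) and Fth1 (50.7 to 133 and 169.8 to 355) do not overlap, while those of Chil3 overlap widely.

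A small subset of members was rich in transcripts of MHC class II, which presents antigen to T cells. With more than 20 UMIs of H2-Aa, H2-Ab1 and Cd74 per 10000, this subset held 10 of 133 members in room air (7.52%, 3.66 to 13.4) and 22 of 272 in hyperoxia (8.09%, 5.14 to 11.99). Its cells were weak in alveolar macrophage markers, since 9 of 10 and 14 of 22 had only 2 of the rule genes and Chil3 was detected in 3 and 6 of them. Cd74, the invariant chain, was at 18936 and 12931 CPM in the subset and at 24.1 and 13.9 CPM in the other members. In room air the subset held the chemokine Ccl24 at 1086 CPM, the lectin Mgl2 at 1076 CPM and Cst3, a protease inhibitor high in dendritic cells, at 14558 CPM. In hyperoxia the same genes stood at 5.72, 166 and 3207 CPM, while the complement gene C1qa was at 1927 CPM against 305 CPM in room air, and Apoe at 8429 against 285 CPM. The cells that met this threshold, which was set after the values were seen, thus differed in these transcripts between the 2 libraries. Of them, 0 of 10 and 6 of 22 were marked as doublets, by a search that marked a larger fixed share in hyperoxia. Whether these cells are alveolar macrophages was not tested.

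Some differences rested on this subset. Over all members, 5 of 6 measured MHC class II genes, of 9 listed, were at least 2-fold lower in hyperoxia (4.21% of all genes), with a median log2 ratio of -1.08. The count fell to 0 of 6 under median-of-ratios (median -0.85) or TMM factors (-0.86) and as the mean over single cells (-0.43). After thinning to 2000 UMIs it was 1 of 6 (-0.59). The subset held 99.0% of the Cd74 UMIs in room air and 98.6% in hyperoxia, and with the 4 rule genes at a sum of at least 8 and 3 detected, the log2 ratio of Cd74 moved from -1.13 to 0.047. Ccl24 had 217 UMIs in room air and 2 in hyperoxia, all of them in the subset, and 1 cell held 47.5% of those in room air. For C1qa the log2 ratio of 1.99 became -0.31 without the subset, for C1qb 1.83 became -1.45, and for Cst3 -1.26 became -0.07. For Mgl2, -3.24 became -0.45 without the subset, from 1 UMI in room air and 2 in hyperoxia. Under the stricter marker rule it was 2.998, from 1 UMI in room air and 22 in hyperoxia. Plbd1, a phospholipase-like lysosomal protein, also had 87.7% and 91.1% of its UMIs in the subset (118 and 20.7 CPM over all members). Ccl24, Mgl2 and Plbd1 passed the filter of 50 CPM only through room air. The ratios of Ear1, Wfdc17, Gpnmb, Cd63, Ccl6, Ccl9 and Fth1 stayed past the fold under every choice of members, scaling and depth tried.

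A smaller share of members was dividing in hyperoxia. A cell was counted as dividing with at least 3 UMIs of 18 genes of the G2 and M phases, after thinning to 2000 UMIs. By this measure 17 of 130 members (13.1%, 7.81 to 20.1) were dividing in room air and 10 of 264 (3.79%, 1.83 to 6.86) in hyperoxia, a difference of -9.29 percentage points (-16.6 to -3.19). Without thinning the shares were 34 of 133 (25.6%) and 41 of 272 (15.1%), a difference of -10.5 points (-19.7 to -1.86). With marked doublets removed the difference was -11.4 points, and without the MHC class II-rich members it was -10.03. In B cells, thinned in the same way, 3.22% and 5.88% were counted as dividing, with a difference of 2.66 points (-0.26 to 4.93), and without thinning 9.20% and 8.68%, with a difference of -0.52 (-4.42 to 2.81). In C1q macrophages the thinned shares were 10.2% and 5.93%, with a difference of -4.28 points (-16.8 to 4.42), and the unthinned shares 26.0% and 29.9%, with a difference of 3.93 (-12.3 to 18.1). Both comparison cell types thus changed direction with depth, within intervals that include 0.

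Of 13 cell cycle genes measured out of 37 listed, 11 were at least 2-fold lower (4.21% of all genes) and 0 higher (1.75%), with a median log2 ratio of -1.91. Top2a, the topoisomerase of dividing cells, was at 193 and 21.6 CPM (log2 ratio -3.16, -3.49 to -2.84), and Mki67, the Ki-67 antigen, at 190.0 and 30.6 CPM (-2.63, -2.92 to -2.35). Birc5 (survivin, 119 and 15.2 CPM) and 2810417H13Rik (173 and 19.1 CPM), together with the histones Hist1h2ap (126.5 and 5.13 CPM) and Hist1h1b (112 and 8.01 CPM), were also among the 12 lowest ratios. Each gene named here was under 50 CPM in hyperoxia and passed the filter only through room air. When members with at least 3 UMIs of the 18 genes without thinning (34 and 41) were left out, 6 genes of the list were measured, with a median of -0.57. The list shares genes with these 18, among them Mki67, whose log2 ratio was then -0.08. The choice of cells thus itself made these differences smaller, and it is no test.

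Over all genes 1.75% were at least 2-fold higher and 4.21% lower, and the lists here are read beside these shares. Of 21 immediate early and dissociation genes measured out of 22 listed, 3 were at least 2-fold lower, and all of these were heat shock genes: Hspa1a (969.6 and 305 CPM, log2 ratio -1.67), Hspa1b (836 and 259 CPM, -1.69) and Hsph1 (-1.60). Egr1 was the 1 gene at least 2-fold higher (1.02, 0.50 when members with UMIs of other cell types were left out), while Fos (-0.25) and Jun (-0.54) were not past the fold. None of 43 subunits of oxidative phosphorylation, all of them measured, was past the fold (median -0.04), nor was any of 14 measured of 22 listed genes of the unfolded protein response (median -0.24) or of 9 measured of 13 listed MHC class I genes (median -0.13). In glycolysis, 1 of 10 measured of 27 listed, Pgam1, was past the fold (1.07). Of 36 interferon response genes only 6 were measured, and 2 were at least 2-fold lower, Ifi27l2a (-1.34) and Ifitm3, whose log2 ratio of -1.22 turned to 0.23 under the stricter marker rule. The chitinase-like, RNase and alternative activation list had 1 higher and 5 lower genes of 11 measured out of 20, with a median of -0.79. Without the rule gene Ear2, 4 of 10 were lower, and the 2 lowest, Ccl24 and Mgl2, lay almost wholly in the MHC class II-rich subset. Of 6 complement genes measured out of 13 listed, 3 were higher (C1qa, C1qb and C1qc) and 2 lower (Cfp and C5ar1), with a median of 0.51. Cfp and C5ar1 passed the filter only through room air, and C1qa only through hyperoxia. Without the MHC class II-rich members 3 were measured, of which 0 were higher and 2 lower, with a median of -2.35.

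**Figure D4:**
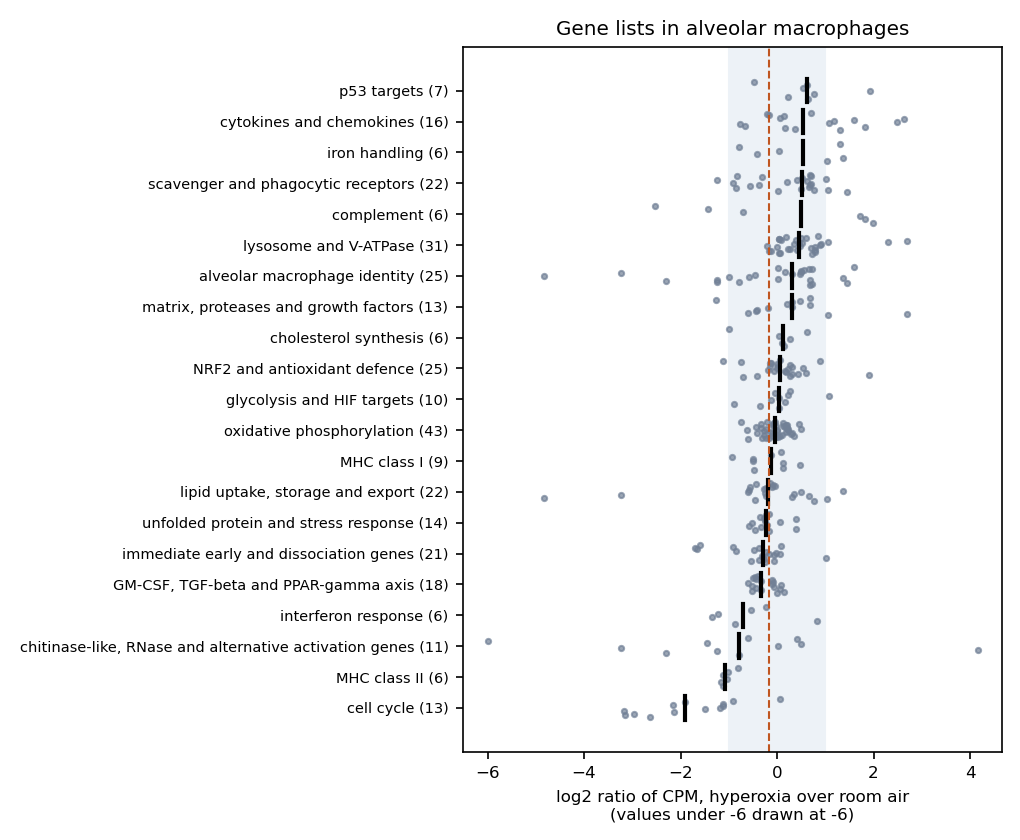
Log2 ratio of CPM, hyperoxia over room air (x axis), for each measured gene of 21 lists (rows, number of genes in brackets), with the median of a list as a black bar, the median of all 2852 genes (-0.17) as a dashed line and the range within 2-fold shaded. The lists run from p53 targets (median 0.62) at the top to the cell cycle (median -1.91) at the bottom, and Ccl24 is drawn at the left edge.

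As the other macrophages of the lung, C1q macrophages were set beside the members, defined as Tyrobp-positive cells with at least 4 UMIs of C1qa, C1qb and C1qc, 2 of these 3 detected and no membership, of which there were 50 in room air and 137 in hyperoxia. Over 2367 genes measured in both kinds of cell, alveolar macrophages had 34 at least 2-fold higher and 91 lower, and C1q macrophages 30 and 40, against 1.86% higher and 1.90% lower over all 3112 genes measured in C1q macrophages. Both kinds shared 8 higher genes and 22 lower genes, and the latter included Mki67, Top2a, Birc5 and Hsph1. The values for the same gene are set side by side without a test, because each kind had 1 library per condition. Ccl6 had a log2 ratio of 1.59 in alveolar and -0.01 (-0.20 to 0.19) in C1q macrophages, Ccl9 2.64 and 0.07, Cd63 2.31 and 0.01, and Fth1 1.37 and 0.33. The ratios of Ccl6, Ccl9, Cd63 and Fth1 were thus near 0 or small in these cells, whereas that of the chemokine Ccl3 was not (2.49 and 1.15, 0.78 to 1.53). Wfdc17 (3.99 and 0.76, 0.49 to 1.04) and Rgs1 (1.99 and 0.63, 0.42 to 0.83) were also higher in both kinds. In the opposite way, Spp1 had 1.06 in alveolar and 4.33 (3.44 to 5.40) in C1q macrophages, and Fabp5 1.04 and 3.97 (3.34 to 4.69). Slc7a11 had 1.91 and 1.82, but with 11 and 95 UMIs in C1q macrophages it was under the mean of 50 CPM there and is not among the genes measured in both. Gpnmb was also under that mean, but with 0 and 147 UMIs (0 and 97.2 CPM) it was higher in hyperoxia in C1q macrophages too.

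**Figure D5:**
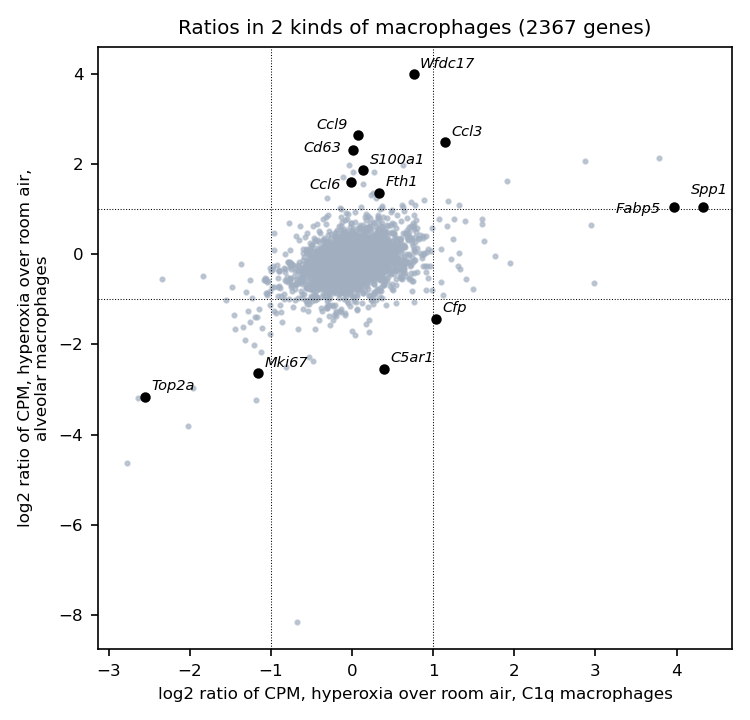
Log2 ratio of CPM, hyperoxia over room air, in alveolar macrophages (y axis) against C1q macrophages (x axis) for 2367 genes measured in both, with dotted lines at 2-fold and named genes in black. Ccl9, Cd63 and Ccl6 lie high on the y axis and near 0 on the x axis, Spp1 and Fabp5 lie far to the right, and Cfp is the only gene at least 2-fold lower in one and 2-fold higher in the other.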

How the data were processed

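Whole-lung cells of 2 groups, 1 library each of 8 pooled C57BL/6 mice (C57BL/6J in the study's methods), were measured by droplet-based single-cell RNA sequencing of transcript 3′ ends. The authors deposited raw UMI counts per gene and cell barcode, made with Cell Ranger on mm10. The extract protocol gives version 6.1.1, the labels' list of tools 2.1.1 and the matrix header 3.1.0. The labels and the study's methods also differ on the version of the kit. Both tables held 27998 genes, and the first row of a duplicated symbol was used.

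The members and the gene lists were chosen with earlier results of these data known. Of 4234 and 13223 barcodes, 345 and 1026 with fewer than 500 genes and 80 and 486 with more than 20% mitochondrial UMIs were left out. Counts were summed over the members of a library (total counts 1857549 and 4869089) and divided to CPM with exact Poisson intervals. Ratios carried exact conditional intervals, which were tested on simulated data, and shares Clopper-Pearson intervals. Named were the rule genes, the listed genes, the 12 highest and 12 lowest ratios among genes that, in the library where they were higher, reached the CPM of all other kept cells there, the 15 genes most restricted to members and the 10 with the highest Fano factor (variance over mean). Sex-linked, mitochondrial and haemoglobin genes were left out of the ratio-based choice.

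Doublets were kept in the main values. As an alternative, cells with the most simulated doublets among their neighbours were removed, up to 0.8% per 1000 barcodes (129 and 1239 cells). Other alternatives changed the marker rule, the cell filter, the scaling, the depth, the weight of cells, the CPM minimum and the fold. Leaving out MHC class II-rich or dividing members was added after the data were seen, and dividing members were left out by their UMIs without thinning. Python 3.11.15, numpy 2.4.6, scipy 1.17.1, pandas 2.3.3, scikit-learn 1.9.0, matplotlib 3.10.9 and R 4.3.3 with edgeR 4.0.16 (TMM factors only) were used.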

Additional observations from a re-analysis of the deposited data

Results flagged for a closer look

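Cfp, which encodes properdin, a plasma protein that stabilises the alternative complement convertase, was the 1 gene of 2367 that was at least 2-fold lower in alveolar macrophages and at least 2-fold higher in C1q macrophages. In alveolar macrophages it had 195 UMIs in room air and 190 in hyperoxia, or 105 and 39.0 CPM, a log2 ratio of -1.43 (-1.72 to -1.13). There it passed the filter of 50 CPM only through room air. It was at 0 in 48 of 133 and 205 of 272 members. In C1q macrophages it had 80 and 400 UMIs, or 129 and 264 CPM, a log2 ratio of 1.03 (0.68 to 1.40). The difference between the 2 kinds of macrophage was not tested, since each had 1 library per condition. In members thinned to 2000 UMIs it was found in 16.9% and 7.20%, against 5.47% and 5.88% of B cells, so the share in hyperoxia members was close to that in B cells. Without the MHC class II-rich members, which held 22.1% of its UMIs in room air and 57.4% in hyperoxia, its log2 ratio in alveolar macrophages was -2.35.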

How the results depend on the processing

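The share of alveolar macrophages among kept cells stayed lower in hyperoxia under each choice of members and filter, by -0.83 to -1.23 percentage points, and the interval included 0 only when Tyrobp-positive cells were the denominator. The counts of genes at least 2-fold higher and lower (50 and 120) moved with the scaling to 90 and 68 (median of ratios) and 89 and 68 (TMM), with thinning to 2000 UMIs to 82 and 219, with a mean CPM of at least 10 to 159 and 530, with at least 100 to 32 and 51, with a 1.5-fold limit to 152 and 430, and with no filter but a UMI in each library to 711 and 1921. Without the MHC class II-rich members the log2 ratio changed sign for Apoe (-0.95), C1qa (-0.31), C1qb (-1.45) and C1qc (-1.18). With a marker sum of at least 8 and 3 genes detected it did so for Mgl2 (2.998, from 1 UMI in room air), Ifitm3 (0.23), H2-Eb1 (0.073) and Cd74 (0.047). The latter changes the sum and the number of genes detected together, and the cause was not tested. Several calls near the limit were lost under some choices of members or depth, among them with lowest log2 ratios of 0.54 for Ccl4, 0.74 for Trem2, 0.93 for Ftl1 and 0.66 for Cxcl2. No paired analysis was possible because the labels give no replicate numbers and each group had 1 library. Depth limits genes under 50 CPM, where 1 cell can set a ratio.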

Other observations

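Among members thinned to 2000 UMIs, the variation between cells was summarised by the Fano factor, which had a median of 1.13 in room air and 1.11 in hyperoxia over 1231 genes with a mean of at least 0.2 UMIs. Chil3 stood at 34.4 and 28.3, so this marker varied widely among the members of both libraries. Its highest member held 899 UMIs per 10000 in room air and 702 in hyperoxia. Cd74 had 43.6 and 30.02, H2-Ab1 17.0 and 12.4, and H2-Aa 13.2 and 10.4. Fth1, the ferritin heavy chain, had 12.9 and 19.3. The top of the ranking also held Eln, the elastin gene, at 91.6 and 38.8, of which 1 member held 51.7% of the UMIs in room air, and Mgp, a matrix protein, at 17.9 and 13.2. Gm42418, Malat1 and mt-Co1 were the other three genes of the 10 highest.

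Mfap4, a matrix protein of stromal cells, was at 69.4 CPM in room air members and 308 CPM in hyperoxia members, against 2035 and 2462 CPM in all other kept cells. Its log2 ratio of 2.15 was 0.21 with simulated doublets removed.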
